A study of Mus musculus with 15 samples.

Results

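The genes described here are 30 genes of cholesterol synthesis, its control, sterol uptake and transport, and efflux, chosen by symbol from the 55487 genes counted in the series. They comprised 20 synthesis enzymes, 6 regulators, 2 genes of uptake and transport and 2 of efflux. All 30 were counted, and all 30 passed the filter on low counts. The study sequenced total RNA of the forebrain of wild-type mice in 5 groups of 3 libraries. NT was untreated. PLX1X was labelled as treated with PLX 1x, and PLX3X_CD0 with PLX 3x. PLX3X_CD30 libraries carry that name but are titled only as PLX treated, and IR_BMT was labelled as IR-BMT treated. What PLX, CD0, CD30 and IR-BMT stand for is not written out in the labels, which give no dose, day or age. Wild-type genotype was shared by all 5 groups, and the untreated libraries served as the reference for each treated group. Whether the 3 libraries of a group are 3 animals is not stated; p-values therefore reflect the scatter among these libraries, possibly technical.

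Brain cholesterol is made within the brain, because the blood-brain barrier keeps circulating lipoproteins out. Acetyl-CoA is turned into mevalonate, then into isoprenoid diphosphates, then into squalene and lanosterol, and finally into cholesterol by a series of reductases, oxidases and isomerases. When sterol in the endoplasmic reticulum is low, the chaperone SCAP escorts SREBP2 to the Golgi, where it is released to switch on the synthesis genes. The INSIG proteins hold SCAP back when sterol is plentiful. Liver X receptors answer surplus oxysterol by raising the exporters ABCA1 and ABCG1 and the ubiquitin ligase MYLIP, which lowers sterol uptake. In the adult brain oligodendrocytes and astrocytes make much of the cholesterol, which astrocytes pass on in particles with apolipoprotein E.

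Promoters of 4 enzymes are shown because 3 belong to enzymes that rose together in the PLX groups (Hmgcs1, Lss and Nsdhl) and 1 to an enzyme that fell in IR_BMT (Ggps1). Each is the 250 bases before the gene's start in the RefSeq annotation of GRCm38.p6, read 5′ to 3′ on the gene's strand. Capitals mark the sterol regulatory element TCACNCCAC, which SREBP proteins bind, and the box CCAAT, which the factor NF-Y binds, each on either strand.
Hmgcs1 (chr13:119690101-119690350, plus strand): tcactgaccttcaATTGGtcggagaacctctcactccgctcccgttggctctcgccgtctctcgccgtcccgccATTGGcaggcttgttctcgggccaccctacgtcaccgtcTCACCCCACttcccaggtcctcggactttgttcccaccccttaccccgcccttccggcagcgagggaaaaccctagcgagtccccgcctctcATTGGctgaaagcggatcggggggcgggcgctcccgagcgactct
Lss (chr10:76531355-76531604, plus strand): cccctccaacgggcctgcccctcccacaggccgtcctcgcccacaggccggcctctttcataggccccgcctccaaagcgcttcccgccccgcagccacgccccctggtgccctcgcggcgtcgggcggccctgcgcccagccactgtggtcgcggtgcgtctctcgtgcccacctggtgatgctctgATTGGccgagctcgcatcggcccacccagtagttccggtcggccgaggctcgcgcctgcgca
Nsdhl (chrX:72918271-72918520, plus strand): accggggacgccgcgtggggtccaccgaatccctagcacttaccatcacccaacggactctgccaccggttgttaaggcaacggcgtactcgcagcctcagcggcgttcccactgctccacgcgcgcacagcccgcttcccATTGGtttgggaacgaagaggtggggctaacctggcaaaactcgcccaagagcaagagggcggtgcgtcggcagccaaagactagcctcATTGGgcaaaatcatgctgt
Ggps1 (chr13:14063489-14063738, minus strand): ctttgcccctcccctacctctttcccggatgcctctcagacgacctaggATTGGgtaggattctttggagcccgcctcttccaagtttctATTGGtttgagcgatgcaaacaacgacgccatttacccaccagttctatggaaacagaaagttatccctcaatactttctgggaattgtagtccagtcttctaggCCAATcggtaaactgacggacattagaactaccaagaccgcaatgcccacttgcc

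The Hmgcs1 stretch held 1 sterol regulatory element, whose first base lay at -137 from the start, and 3 CCAAT boxes. Lss held 1 CCAAT box, Nsdhl 2 and Ggps1 3, so the box was present both in enzymes that rose and in one that fell. RefSeq windows of 300 bases (250 before the start and 50 after) were matched for 25 of the 30 genes. Those of Fdps, Fdft1, Sqle, Stard4 and Abcg1 were not used here. Hmgcs1 was the only one of the 25 whose window held TCACNCCAC, against 1.4% of 27025 genes. The 3 motifs searched do not contain one another. CCAAT was found for 21 of the 25 and for 16 of 17 synthesis enzymes, against 41.1% of all genes. The Sp1 box GGGCGG was found for 22 of the 25 and for 15 of 17 synthesis enzymes, against 38.2% of all genes. These are letter matches on both strands and describe the windows only.

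Library depth was lowest in NT replicate 1 (19249641 counts) and highest in PLX3X_CD0 replicate 3 (54801136). Of 8 microglial markers, 7 fell in each treated group, and their summed level (in CPM, counts relative to library size after TMM scaling) was 438 to 521 in NT, 39.8 to 64.5 in PLX1X, 35.8 to 69.4 in PLX3X_CD0, 182 to 190.0 in PLX3X_CD30 and 178 to 200.0 in IR_BMT. Other cell type markers also moved. Oligodendrocyte markers summed to 7610 to 9360 CPM in NT and 5500 to 6050 in IR_BMT, and 2, 5, 1 and 7 of 10 fell in PLX1X, PLX3X_CD0, PLX3X_CD30 and IR_BMT. Astrocyte markers fell for 5, 7, 1 and 2 of 8, and neuronal markers rose for 5, 4, 4 and 5 of 8. Markers of nearby regions varied as well. Thalamic markers summed to 327 CPM in NT replicate 1 and to 134 and 138 in the other NT libraries, and striatal markers fell for 4 of 6 in IR_BMT. Neuronal markers summed to 7570 to 8440 CPM in NT and 9850 to 10900 in IR_BMT, so the labelled brain tissue carried its defining markers. The part of these shifts in the results below was not tested, and in bulk tissue fewer cells of a type cannot be told apart from less RNA per cell.

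**Figure D1:**
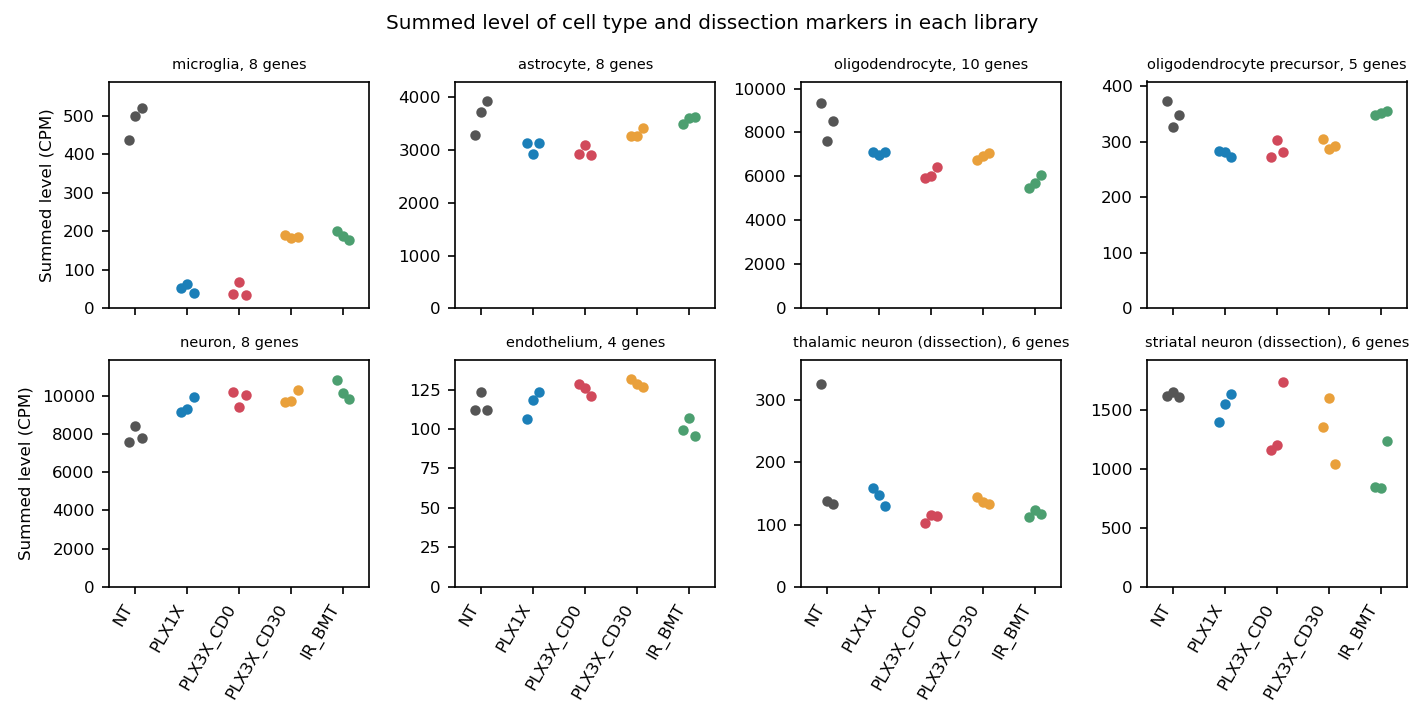
Summed level of each marker list (y axis, CPM after TMM scaling, from 0) in each library (points), by group (x axis). Microglial markers are lower in all treated groups, neuronal markers are higher, and NT replicate 1 stands above every other library in thalamic markers at 327 CPM.

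Levels between genes are compared as CPM per kilobase of the longest annotated transcript. In NT the regulator Srebf2 had the highest level at 55.3 CPM per kb, followed by Hmgcs1 at 49.6, Nr1h2 at 46.3 and Msmo1 at 33. At the low end stood Lbr at 4.51, Stard4 at 3.97, Mylip at 3.72 and Fdps at 1.14 CPM per kb. Fdps encodes farnesyl diphosphate synthase, and its level is uncertain: the annotation places a second protein-coding gene over 7512 of its bases on the same strand, and how shared reads were counted is not given in the sources used here.

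Synthesis enzymes were higher in PLX1X than in NT for 8 of 20 and lower for 0, with a median log2 fold change of 0.14 against -0.04 over all genes tested. By edgeR's quasi-likelihood test with Benjamini-Hochberg adjustment at 0.05, 9.97% of 21780 genes were higher and 8.12% lower. None of the 20 was lower at an unadjusted p under 0.05 or by DESeq2 either, which held too in PLX3X_CD0 and PLX3X_CD30. The 8 were Acat2, Hmgcs1, Fdft1, Sqle, Lss, Nsdhl, Sc5d and Dhcr7, with log2 fold changes from 0.22 (Dhcr7) to 0.49 (Fdft1). In each of the 8, all 3 PLX1X libraries lay above all 3 NT libraries. As the 8 were picked by the test on these libraries, this adds no separate support. The share of all genes set apart in this way was not counted. The group of enzymes between mevalonate and farnesyl diphosphate (Mvk, Pmvk, Mvd, Idi1 and Fdps) held no call, with log2 fold changes from -0.03 (Idi1) to 0.09 (Fdps). An offset per library for transcript length and GC content, centred so that it leaves the scale of the library alone, left 7 enzymes higher, with a median of 0.08 against -0.06 over all genes, of which 8.06% were higher and 10.3% lower; without the centring it gave 11, against 19.1% and 5.49%.

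In PLX3X_CD0 the count of synthesis enzymes higher than in NT was again 8 of 20, with 0 lower, and the median log2 fold change was 0.21 against -0.03 over all genes. Over all genes 12.2% were higher and 9.53% lower. The 8 were Acat2, Hmgcs1, Mvk, Fdft1, Sqle, Lss, Nsdhl and Sc5d, from 0.20 for Sc5d to 0.60 for Lss. PLX1X and PLX3X_CD0 were set against the same NT libraries, so their calls are not independent of each other. With the centred offset 6 were higher, with a median of 0.14 against -0.05 over all genes, and against 8.58% of genes higher and 11.3% lower, and without the centring 11, against 16.3% and 6.89%.

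Fewer enzymes were called in PLX3X_CD30: 5 of 20 were higher than in NT and 0 lower, with a median of 0.10 against -0.02 over all genes, where 4.74% of genes were higher and 1.84% lower. They were Hmgcs1, Fdft1, Sqle, Lss and Nsdhl. The number was 3 without NT replicate 2 and 3, 3 and 1 without PLX3X_CD30 replicates 1, 2 and 3. It was 2 with only the 6 libraries compared, and 3 with the centred offset, with a median of 0.06 against -0.04 over all genes, where 3.37% of genes were higher and 2.7% lower. Without the centring it was 6, where 7.05% were higher and 1.63% lower. Fdft1 was the 1 enzyme that passed under all alternatives run in this comparison.

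IR_BMT held enzymes that fell as well as enzymes that rose. There 4 of 20 were higher than in NT (Mvd, Fdft1, Lss and Dhcr7) and 2 lower (Idi1 and Ggps1), with a median of 0.15 against -0.05 over all genes. Over all genes 15.1% were higher and 15.4% lower, so the 4 higher enzymes, 1 in 5, stand near the background share. Under the centred offset 5 were higher (Hmgcs1, Fdft1, Lss, Nsdhl and Dhcr7) and 1 lower (Ggps1), against 9.83% of genes higher and 12.9% lower, and their median fell to 0.08 against -0.07 over all genes. Without the centring 6 were higher and 1 lower, against 16.5% and 7.47%.

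**Figure D2:**
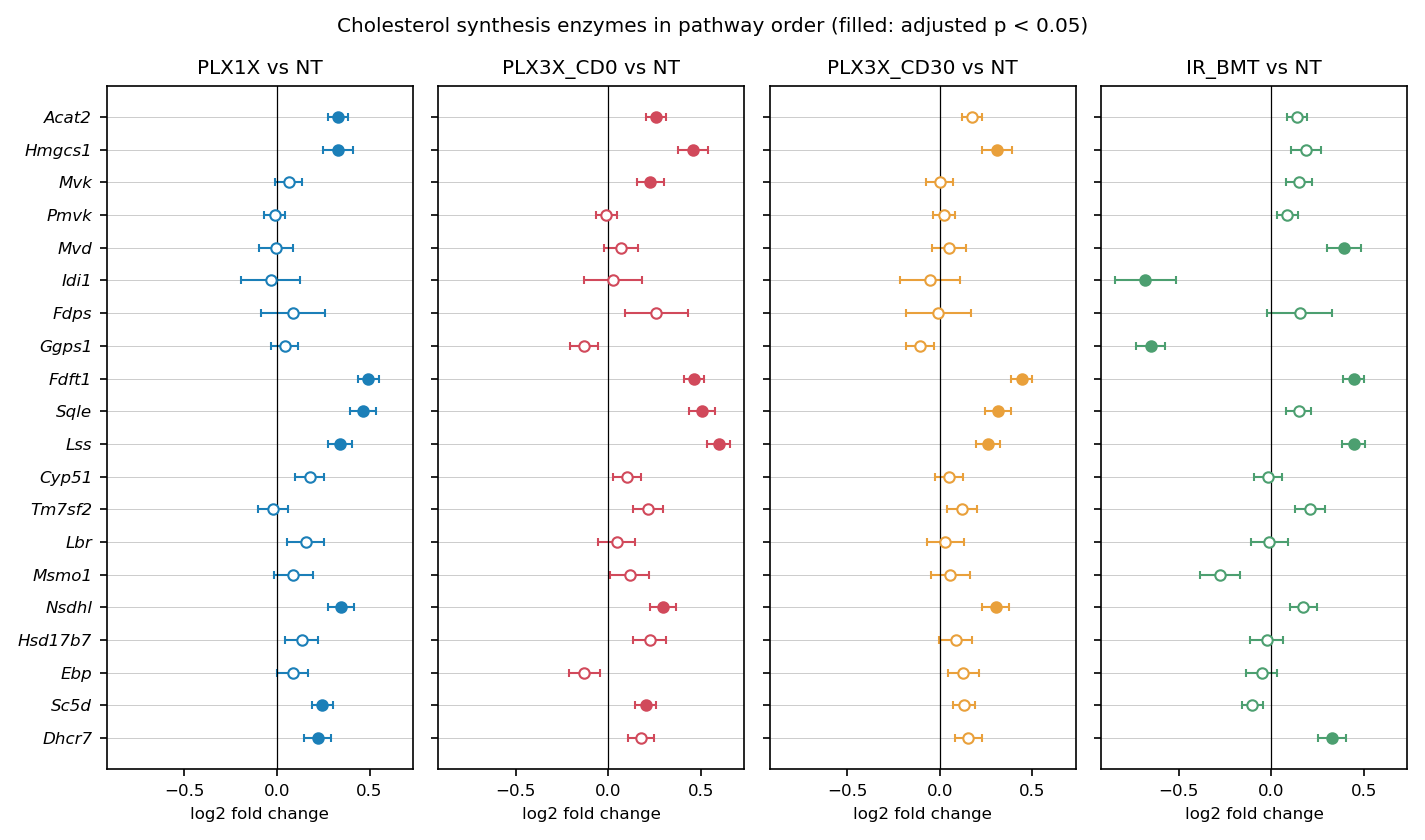
Log2 fold change against NT (x axis) of the 20 synthesis enzymes in pathway order (y axis) for each treated group; bars are SE from edgeR's quasi-likelihood fit, and filled points have an adjusted p under 0.05. Fdft1 and Lss are filled in all 4 panels, and in the IR_BMT panel Idi1 and Ggps1 are filled below 0, at -0.68 and -0.65.

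Entry into the pathway was represented by Acat2 and Hmgcs1. Acat2, the cytosolic thiolase that joins 2 acetyl-CoA molecules, was at 54.1, 55.8 and 58.4 CPM in the NT libraries, 68.3, 71.0 and 72.9 in PLX1X and 69.5, 63.2 and 68.8 in PLX3X_CD0. Every library of both PLX groups exceeded every NT library. Its log2 fold change was 0.33 ± 0.05 (SE), adjusted p = 0.000315 in PLX1X, and 0.26 ± 0.05 (SE), adjusted p = 0.00187 in PLX3X_CD0. In PLX3X_CD30 and IR_BMT it reached 0.18 (adjusted p = 0.059) and 0.14 (adjusted p = 0.056), which did not pass, though all libraries of both lay above NT. DESeq2, the offset without the centring, with or without the replicate block, and the fit without NT replicate 3 called it higher in both. The stricter filter did so in PLX3X_CD30 and RLE size factors in IR_BMT.

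Hmgcs1 (chr13:119690379-119708260, GRCm38), HMG-CoA synthase and the gene whose promoter held the sterol regulatory element, was at 184.2, 171.5 and 159.8 CPM in NT. It was at 199.4, 229.6 and 218.9 in PLX1X, 258.5, 209.3 and 240.1 in PLX3X_CD0, 206.8, 214.7 and 216.2 in PLX3X_CD30 and 217.5, 183.5 and 186.4 in IR_BMT. No library of the 3 PLX groups overlapped NT, whereas IR_BMT replicate 2 lay just below NT replicate 1. Log2 fold changes were 0.33 ± 0.08 (SE), adjusted p = 0.00746 in PLX1X, 0.46 ± 0.08 (SE), adjusted p = 0.000425 in PLX3X_CD0 and 0.31 ± 0.08 (SE), adjusted p = 0.0279 in PLX3X_CD30. The IR_BMT value, 0.19 ± 0.08 (SE), adjusted p = 0.0847, did not pass, but with the centred offset it was 0.39, adjusted p = 0.000783. With only the 6 libraries compared, without NT replicate 2 or 3, or without any 1 of the PLX3X_CD30 libraries, the PLX3X_CD30 call was lost.

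Between mevalonate and the isoprenoids few enzymes were called. Mevalonate kinase, Mvk, passed in PLX3X_CD0 alone, at 0.23 ± 0.07 (SE), adjusted p = 0.029, and lost that call with the centred offset, with no filter on low counts, with only the 6 libraries compared, and without NT replicate 1 or 2 or PLX3X_CD0 replicate 2 or 3. Pmvk, phosphomevalonate kinase, lay between -0.01 and 0.09 in the 4 groups and passed in none. Mvd, the decarboxylase that yields isopentenyl diphosphate, was at 28.6, 24.8 and 31.6 CPM in NT and 33.3, 40.3 and 38.1 in IR_BMT, where it rose by 0.39 ± 0.09 (SE), adjusted p = 0.00315. Its transcript is 59.0% GC, and with the centred offset the difference was 0.14, adjusted p = 0.251. Mvd overlaps Gm20388, annotated as protein-coding and at 0.0 CPM in NT, by 9822 bases on the opposite strand, so its counts are less certain.

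Idi1, which isomerises isopentenyl diphosphate, was at 14.7, 15.4 and 13.3 CPM in NT and 11.9, 8.83 and 6.48 in IR_BMT. All 3 IR_BMT libraries lay below all 3 NT libraries, though they spread widely, and the PLX libraries ranged over 13.0, 14.2 and 15.2 in PLX1X, 17.2, 12.3 and 14.6 in PLX3X_CD0 and 13.7, 13.1 and 14.9 in PLX3X_CD30. The IR_BMT log2 fold change was -0.68 ± 0.17 (SE), adjusted p = 0.00462; with the centred offset it was -0.39, adjusted p = 0.0643. Fdps passed in no group, at 4.0, 2.72 and 3.37 CPM in NT and from -0.01 to 0.26 on the log2 scale.

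Ggps1 (chr13:14050659-14063488, minus strand) makes geranylgeranyl diphosphate, the side branch that feeds protein prenylation rather than sterols. It was at 66.8, 61.2 and 58.5 CPM in NT, 64.5, 64.5 and 62.4 in PLX1X, 57.4, 54.1 and 58.1 in PLX3X_CD0 and 56.9, 61.8 and 54.2 in PLX3X_CD30. In IR_BMT it was at 45.1, 36.3 and 37.2 CPM, below every library of the other 4 groups. Ggps1 fell, with a log2 fold change of -0.65 ± 0.08 (SE), adjusted p = 5.62e-06 against NT, and it was lower in IR_BMT than in PLX3X_CD0 (-0.52 ± 0.08 (SE), adjusted p = 0.00011) and PLX3X_CD30 (-0.54 ± 0.08 (SE), adjusted p = 0.000173). Its transcript is 40.1% GC, the lowest of the 30. With the centred offset the difference from NT was -0.34, adjusted p = 0.00092, a smaller value that still passed. Ggps1 overlaps Arid4b by 257 bases on the opposite strand, and the library kit does not mark strand.

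Across the whole transcriptome the IR_BMT differences followed transcript GC content. The median log2 fold change of all genes was -0.35 below 44% GC, -0.13 from 44 to 48%, -0.01 from 48 to 52%, 0.11 from 52 to 56% and 0.20 at 56% and above. In PLX1X the same bands lay between -0.10 and -0.02, in PLX3X_CD0 between -0.09 and 0.0 and in PLX3X_CD30 between -0.08 and 0.01. The cause of the IR_BMT trend was not tested. The offset took transcript length and GC content together, and their shares in its effect were not separated.

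**Figure D3:**
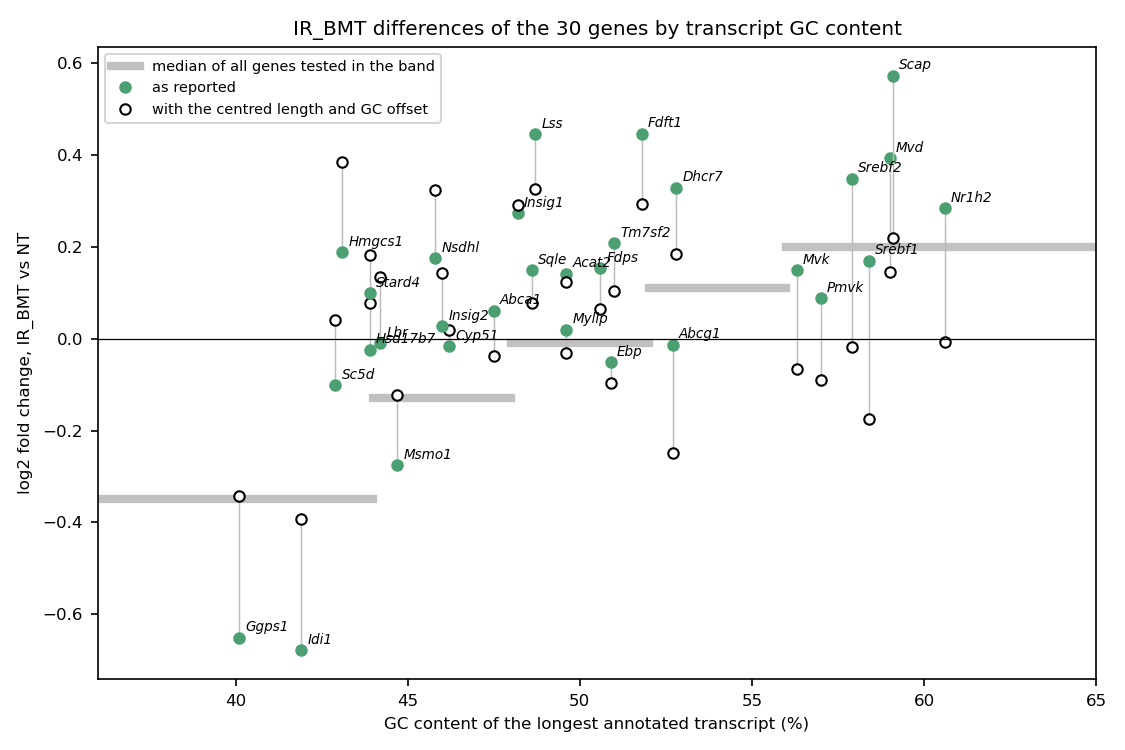
Log2 fold change, IR_BMT against NT (y axis), of the 30 genes by GC content of the longest annotated transcript (x axis, %); filled points are the values as reported, open points those with the centred length and GC offset, and grey bars the median of all genes tested in each GC band. Srebf2 and Nr1h2 move to -0.02 and -0.01 with the offset, Ggps1 to -0.34 and Hmgcs1 to 0.39.

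Enzymes of squalene and lanosterol formation rose in most groups. Fdft1 (chr14:63145150-63179578), squalene synthase and the first enzyme committed to sterols, was at 95.0, 99.1 and 99.5 CPM in NT. It was at 130.1, 140.3 and 143 in PLX1X, 139.5, 127 and 138 in PLX3X_CD0, 129, 132 and 138 in PLX3X_CD30 and 139, 132 and 129 in IR_BMT. All 12 treated libraries lay above all 3 NT libraries, and the fitted group levels were 35.9 to 40.7% higher. The log2 fold changes were 0.49 ± 0.06 (SE), adjusted p = 8.56e-06 in PLX1X, 0.46 ± 0.06 (SE), adjusted p = 8.17e-06 in PLX3X_CD0, 0.44 ± 0.06 (SE), adjusted p = 0.000284 in PLX3X_CD30 and 0.45 ± 0.06 (SE), adjusted p = 9.47e-06 in IR_BMT. Fdft1 passed in all 4 comparisons under every alternative run, though the IR_BMT value was 0.29 with the centred offset, and the 4 share their NT libraries. It overlaps Ctsb, a lysosomal protease gene at 854 CPM in NT, by 774 bases on the opposite strand, and reads of the 2 genes in that stretch cannot be told apart.

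Sqle, squalene monooxygenase, was at 87.5, 84.4 and 77.9 CPM in NT, 107, 119.8 and 117 in PLX1X, 127, 108 and 120.1 in PLX3X_CD0 and 101, 103 and 106 in PLX3X_CD30. These libraries did not overlap NT, and the log2 fold changes were 0.46 ± 0.07 (SE), adjusted p = 0.00014, 0.51 ± 0.07 (SE), adjusted p = 3.33e-05 and 0.32 ± 0.07 (SE), adjusted p = 0.0105 in that order. IR_BMT libraries, at 100.5, 88.3 and 88.1 CPM, stood just above NT and did not pass (0.15 ± 0.07 (SE), adjusted p = 0.114). Sqle was lower in IR_BMT than in PLX3X_CD0 by the direct test, at -0.36 ± 0.07 (SE), adjusted p = 0.00109, and this call was kept under every alternative run. In PLX3X_CD30 the call was lost with the centred offset (0.24, adjusted p = 0.0667) and without PLX3X_CD30 replicate 3.

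Lss, lanosterol synthase, closes squalene epoxide into the first sterol ring system. It was at 30.6, 31.6 and 35.4 CPM in NT, 40.7, 41.6 and 41.6 in PLX1X, 49.1, 51.1 and 47.7 in PLX3X_CD0, 40.0, 37.4 and 39.7 in PLX3X_CD30 and 42.7, 43.7 and 46.9 in IR_BMT. PLX3X_CD0 libraries were the highest, above every library of the other groups, and no treated library overlapped NT. Log2 fold changes against NT were 0.34 ± 0.06 (SE), adjusted p = 0.00094 in PLX1X, 0.60 ± 0.06 (SE), adjusted p = 1.93e-06 in PLX3X_CD0, 0.26 ± 0.06 (SE), adjusted p = 0.0186 in PLX3X_CD30 and 0.45 ± 0.06 (SE), adjusted p = 3.66e-05 in IR_BMT. Under the centred offset Lss was at 0.20 in PLX1X and 0.40 in PLX3X_CD0, and both still passed. The PLX3X_CD30 call was lost with that offset, with only the 6 libraries compared, and without NT replicate 2 or PLX3X_CD30 replicate 1 or 3.

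**Figure D4:**
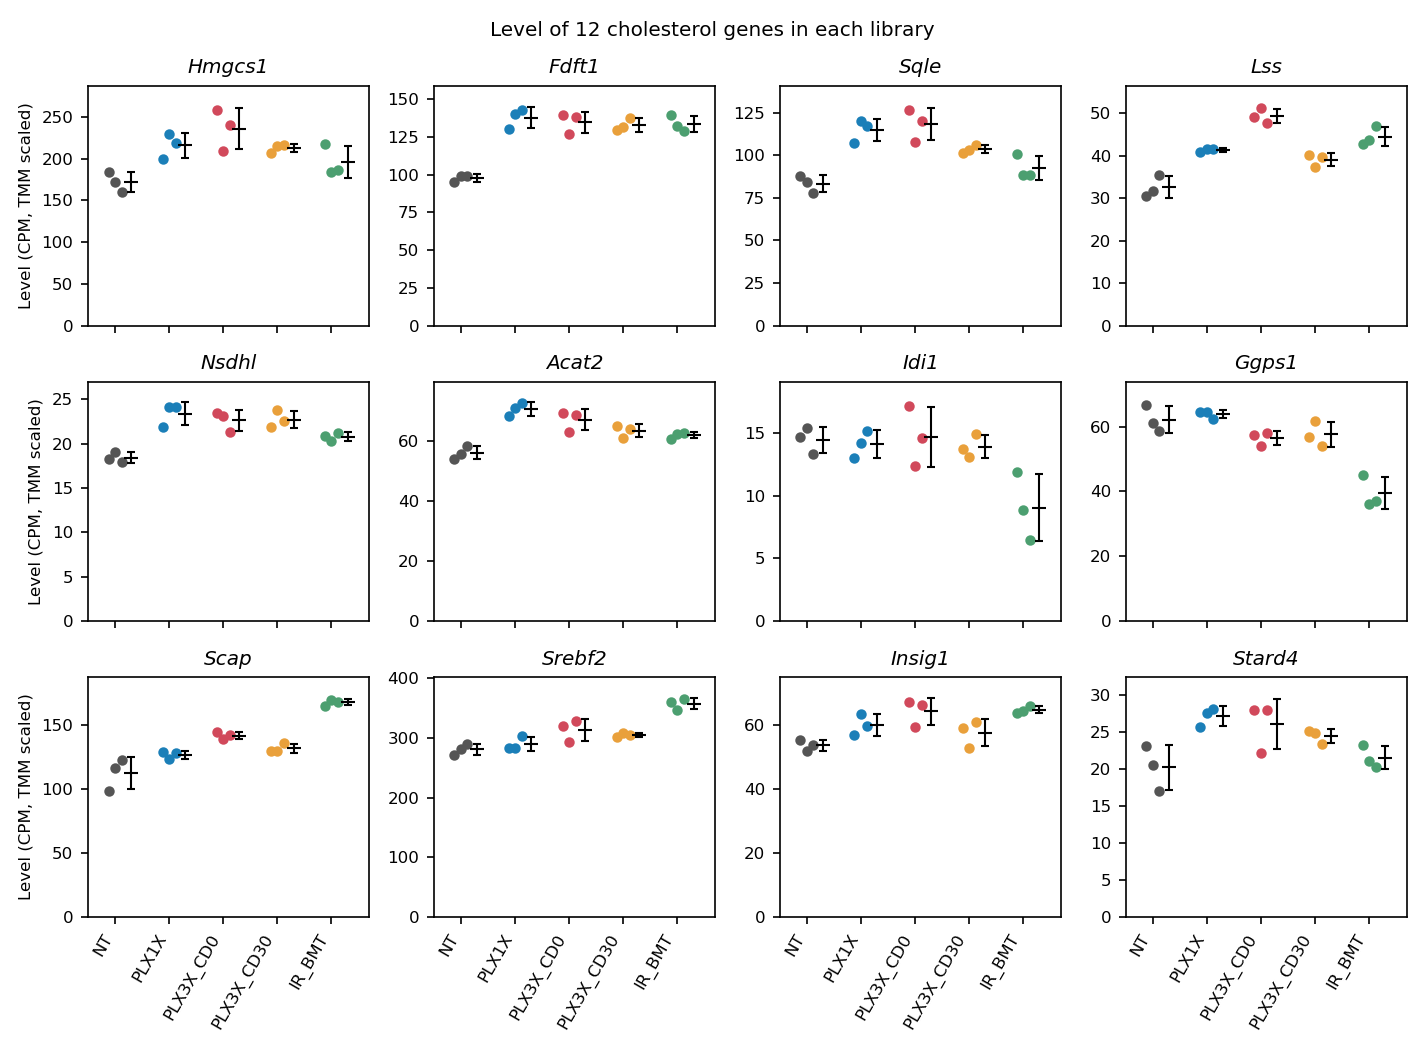
Level of 12 of the 30 genes (y axis, CPM after TMM scaling, from 0) in each library (coloured points) by group (x axis); black bars are the mean ± SD of 3 libraries. The 12 treated Fdft1 libraries lie above the 3 NT libraries, and the 3 IR_BMT libraries lie below all others for Ggps1.

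Post-lanosterol enzymes moved less evenly. Cyp51, lanosterol demethylase, passed in no group and lay from -0.02 to 0.18 on the log2 scale. The sterol reductases Tm7sf2 and Lbr, the second also an inner nuclear membrane protein, passed in none. Tm7sf2 came nearest the threshold, at 0.21 (adjusted p = 0.0658) in PLX3X_CD0 and 0.21 (adjusted p = 0.0595) in IR_BMT. Msmo1, methylsterol monooxygenase, was at 114, 97.9 and 81.9 CPM in NT and 87.3, 77.4 and 77.5 in IR_BMT, and these overlapped (-0.28 ± 0.11 (SE), adjusted p = 0.0639). Cyp51 overlaps Akap9 by 166 bases on the opposite strand, and Tm7sf2 overlaps Vps51 by 532 bases on the same strand, so their counts are less certain.

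Nsdhl, the dehydrogenase that acts with Msmo1, was at 18.2, 19.1 and 17.9 CPM in NT, 21.9, 24.1 and 24.1 in PLX1X, 23.4, 23.1 and 21.3 in PLX3X_CD0 and 21.8, 23.8 and 22.5 in PLX3X_CD30. It rose in all 3, by 0.34 ± 0.07 (SE), adjusted p = 0.00224, 0.30 ± 0.07 (SE), adjusted p = 0.00516 and 0.30 ± 0.07 (SE), adjusted p = 0.0154 on the log2 scale; the last was lost with only the 6 libraries compared and without PLX3X_CD30 replicate 2 or 3. In IR_BMT, at 20.9, 20.2 and 21.2 CPM, the value was 0.17 ± 0.07 (SE), adjusted p = 0.073 and did not pass, and with the centred offset it was 0.32, adjusted p = 0.00247. Hsd17b7, a ketosteroid reductase, and Ebp, the sterol isomerase, passed in no group. Their values ran from -0.02 to 0.22 for Hsd17b7 and from -0.13 to 0.13 for Ebp.

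Sc5d, a sterol desaturase, rose in PLX1X (0.24 ± 0.06 (SE), adjusted p = 0.00553) and PLX3X_CD0 (0.20 ± 0.06 (SE), adjusted p = 0.016). Its libraries were at 79.9, 90.0 and 82.2 CPM in NT, 97.7, 99.6 and 102 in PLX1X, 102, 90.7 and 97.8 in PLX3X_CD0 and 79.7, 78.6 and 76.9 in IR_BMT, the last all below NT without passing. The PLX3X_CD0 call was lost with the centred offset, with only the 6 libraries compared, and without NT replicate 1 or PLX3X_CD0 replicate 1 or 3. Dhcr7, the dehydrocholesterol reductase that makes cholesterol itself, was at 38.6, 44.6 and 50.8 CPM in NT, 52.0, 51.2 and 53.4 in PLX1X and 56.9, 54.5 and 57.6 in IR_BMT. Dhcr7 rose by 0.22 ± 0.07 (SE), adjusted p = 0.0413 in PLX1X, where the centred offset, the 6 libraries compared, and leaving out NT replicate 1 or 2 or any PLX1X library each ended the call, and by 0.33 ± 0.07 (SE), adjusted p = 0.00188 in IR_BMT. Sc5d in PLX1X was at 0.16, adjusted p = 0.0446 with the centred offset, and Dhcr7 in IR_BMT at 0.18, adjusted p = 0.0378. Both calls were lost when the replicate block was added to that offset.

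The median of the 20 enzymes in a library, taken over the NT mean on the log2 scale, was 0.143 to 0.19 in the PLX1X libraries, 0.092 to 0.248 in PLX3X_CD0, 0.076 to 0.131 in PLX3X_CD30 and 0.091 to 0.112 in IR_BMT. The NT libraries lay from -0.037 to 0.021, below every treated library. They make up the NT mean, so they lie near 0 by construction. Enzymes above the NT mean numbered 12, 10 and 7 in the NT libraries and 11 in PLX3X_CD0 replicate 2. Every other treated library held 13 to 18. Over the 4 comparisons with NT, 10 of the 20 enzymes rose in none, 2 in 1, 3 in 2, 3 in 3 and 2 (Fdft1 and Lss) in all 4. The 4 comparisons share the NT libraries, so repeated calls are not independent. The matching shares over all genes were not counted, so these numbers describe the enzymes only. The 3 that rose in 3 groups, Hmgcs1, Sqle and Nsdhl, did so in the PLX groups. In the main fit, without offset, none of these 3 genes passed between IR_BMT and PLX3X_CD30. Against PLX3X_CD0, Hmgcs1 and Sqle were lower in IR_BMT, and Nsdhl did not pass.

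Regulators, uptake and efflux genes were called for 1 of 10 in PLX1X, 4 in PLX3X_CD0, 1 in PLX3X_CD30 and 4 in IR_BMT, all of them higher by the fit without offset. The direction was mixed with the centred offset: 1 was higher and 1 lower in PLX1X, 2 and 2 in PLX3X_CD0, 0 and 1 in PLX3X_CD30, and 2 and 2 in IR_BMT. The genes then lower were Srebf1 in all 4 groups, Mylip in PLX3X_CD0 and Abcg1 in IR_BMT. Over all genes 18.1%, 21.7%, 6.57% and 30.6% were called in either direction in those comparisons, so the 4 of 10 in PLX3X_CD0 and in IR_BMT and the 1 of 10 in the other groups are to be read against those shares. Medians were 0.05, 0.08, 0.07 and 0.14 on the log2 scale, against -0.04, -0.03, -0.02 and -0.05 over all genes. Under that offset they were -0.04, -0.06, 0.01 and -0.01, against -0.06, -0.05, -0.04 and -0.07, so 3 of the 4 changed sign. In PLX1X the count was 2 without any 1 of the NT libraries, in PLX3X_CD0 it was 2 without PLX3X_CD0 replicate 1 or 3 and with only the 6 libraries compared, and in PLX3X_CD30 it was 0 without any 1 of the PLX3X_CD30 libraries.

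**Figure D5:**
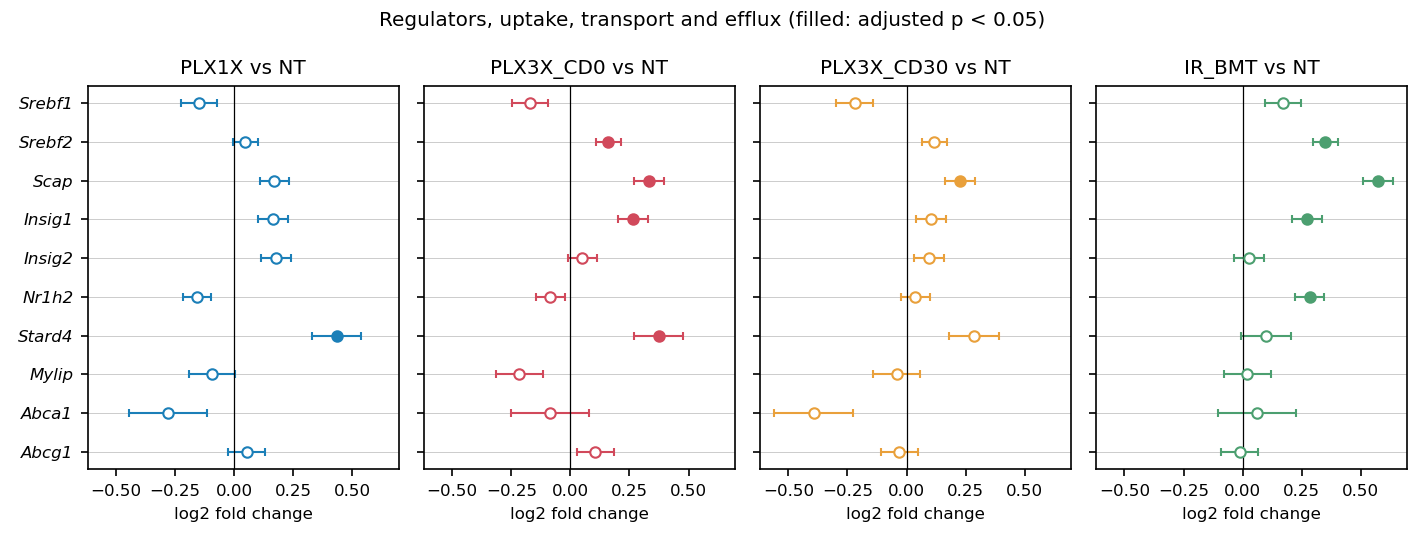
Log2 fold change against NT (x axis) of the 10 regulators, uptake, transport and efflux genes (y axis) for each treated group; bars are SE from edgeR's quasi-likelihood fit, and filled points have an adjusted p under 0.05. Scap is filled in 3 panels, and the efflux genes Abca1 and Abcg1 in none.

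Scap, the SREBP escort, was at 98.1, 116 and 122 CPM in NT, 128, 123 and 128 in PLX1X, 144, 138 and 142 in PLX3X_CD0, 129.5, 129 and 135 in PLX3X_CD30 and 165, 169 and 168 in IR_BMT. Each treated library exceeded every NT library, and NT replicate 1 was the lowest of all. Scap rose by 0.33 ± 0.06 (SE), adjusted p = 0.000801 in PLX3X_CD0, 0.23 ± 0.06 (SE), adjusted p = 0.0382 in PLX3X_CD30 and 0.57 ± 0.06 (SE), adjusted p = 2.98e-06 in IR_BMT, but not by the test in PLX1X (0.17 ± 0.06 (SE), adjusted p = 0.0696). In PLX1X Scap was called higher by DESeq2, by the offset without the centring, with or without the replicate block, and without NT replicate 3. Its transcript is 59.1% GC and 4227 bases long. With the centred length and GC offset the IR_BMT value was 0.22, adjusted p = 0.0021 and the PLX3X_CD0 value 0.17, adjusted p = 0.0106. The PLX3X_CD30 call was lost with that offset, with only the 6 libraries compared, without NT replicate 1 and without any 1 of the PLX3X_CD30 libraries.

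Srebf2 encodes SREBP2, the main activator of the synthesis genes. Its libraries were at 271, 282 and 289 CPM in NT, 320.4, 293 and 328 in PLX3X_CD0 and 361, 347 and 365 in IR_BMT, without overlap between NT and either. Srebf2 rose by 0.16 ± 0.05 (SE), adjusted p = 0.0352 in PLX3X_CD0 and by 0.35 ± 0.05 (SE), adjusted p = 6.67e-05 in IR_BMT. Its transcript is 57.9% GC and 5077 bases long. With the centred length and GC offset Srebf2 passed in neither group. It was at -0.03, adjusted p = 0.804 in PLX3X_CD0 and -0.02, adjusted p = 0.854 in IR_BMT, so both differences changed sign. The PLX3X_CD0 call was also lost with no filter, with the stricter filter, with only the 6 libraries compared, and without NT replicate 1 or 2 or PLX3X_CD0 replicate 1 or 3.

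Srebf1, whose protein drives mainly fatty acid synthesis, was at 105, 106 and 125 CPM in NT and passed in no group. Its log2 fold changes were -0.15 in PLX1X, -0.17 in PLX3X_CD0, -0.22 in PLX3X_CD30 and 0.17 in IR_BMT. With the centred offset Srebf1 was lower in all 4, at -0.21, adjusted p = 0.0212 in PLX1X, -0.33, adjusted p = 0.000553 in PLX3X_CD0, -0.32, adjusted p = 0.00419 in PLX3X_CD30 and -0.17, adjusted p = 0.0428 in IR_BMT. The IR_BMT direction depended on the setting. Without NT replicate 3 or IR_BMT replicate 1, and without offset, Srebf1 was called higher there. With the replicate block added to the centred offset it was not called in IR_BMT.

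Insig1, itself an SREBP2 target and the brake on SCAP, was at 55.2, 52.0 and 53.6 CPM in NT, 67.2, 59.5 and 66.4 in PLX3X_CD0 and 63.9, 64.4 and 66.0 in IR_BMT. Both groups lay wholly above NT, with 0.27 ± 0.06 (SE), adjusted p = 0.00561 in PLX3X_CD0 and 0.27 ± 0.06 (SE), adjusted p = 0.00319 in IR_BMT, and both calls were kept under every alternative run. Its paralogue Insig2 passed in no group and was highest in PLX1X, at 0.17 ± 0.06 (SE), adjusted p = 0.0606. There DESeq2, RLE size factors, the replicate block and the fit without NT replicate 2 did call it higher. So did the offset without the centring, with or without the block, and the centred offset with the block. Nr1h2, the liver X receptor beta, was at 84.9, 95.2 and 97.4 CPM in NT and 104, 121 and 113 in IR_BMT, where it rose by 0.28 ± 0.06 (SE), adjusted p = 0.00148. Nr1h2 has the highest GC content of the 30, 60.6%, and with the centred offset its IR_BMT difference was -0.01, adjusted p = 0.939.

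Stard4, a carrier that moves sterol between membranes, was at 23.2, 20.5 and 17.1 CPM in NT, 25.6, 27.6 and 28.2 in PLX1X and 27.9, 22.1 and 28.1 in PLX3X_CD0. PLX1X lay wholly above NT, while PLX3X_CD0 replicate 2 fell within the NT range. Stard4 rose by 0.43 ± 0.10 (SE), adjusted p = 0.0067 in PLX1X and by 0.37 ± 0.10 (SE), adjusted p = 0.0139 in PLX3X_CD0, where the centred offset, the 6 libraries compared, and leaving out NT replicate 3 or PLX3X_CD0 replicate 1 or 3 each ended the call. Mylip, the ligase that lowers sterol uptake, passed in none, from -0.22 in PLX3X_CD0 to 0.02 in IR_BMT. Under the centred offset it was lower in PLX3X_CD0, at -0.29, adjusted p = 0.0379.

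The exporters passed in no group by edgeR. Abca1, which loads cholesterol onto lipid-poor apolipoproteins, was at 42.9, 44.8 and 54.5 CPM in NT, 42.7, 37.3 and 37.5 in PLX1X, 36.6, 59.3 and 38.3 in PLX3X_CD0, 38.7, 35.5 and 34.5 in PLX3X_CD30 and 43.5, 50.9 and 54.3 in IR_BMT. PLX1X and PLX3X_CD30 lay below NT without overlap, at -0.28 ± 0.17 (SE), adjusted p = 0.28 and -0.39 ± 0.17 (SE), adjusted p = 0.196, and PLX3X_CD0 replicate 2 stood far above its own group. Without that library Abca1 was called lower in PLX3X_CD0, and with no filter on low counts it was called lower in PLX1X and PLX3X_CD30. Abcg1, which exports sterol to larger particles, stayed within -0.03 and 0.11 in the 4 groups, and with the centred offset it was lower in IR_BMT, at -0.25, adjusted p = 0.0192.

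Comparisons among the treated groups set PLX3X_CD0 against PLX1X, PLX3X_CD30 against PLX3X_CD0, and IR_BMT against each PLX3X group. IR_BMT and PLX3X_CD30 were not tested against PLX1X. PLX3X_CD0 exceeded PLX1X for 1 enzyme, Lss (0.26 ± 0.06 (SE), adjusted p = 0.0325), where 1.79% of genes were higher, 0.67% lower and 2.46% either. No enzyme was lower by edgeR or DESeq2, though 2 had an unadjusted p under 0.05. The Lss call was lost with the centred offset (0.869% of genes higher, 0.671% lower), without the centring (0.464% and 0.795%), and without any 1 of the 6 libraries. PLX3X_CD30 was below PLX3X_CD0 for 1 enzyme, again Lss (-0.34 ± 0.06 (SE), adjusted p = 0.00346), where 1.93% of genes were lower, 1.87% higher and 3.8% either, and the call was lost with the centred offset (2.37% higher, 0.892% lower). Without the centring 2 enzymes were lower (1.82% of genes higher, 1.44% lower). No enzyme was higher there by edgeR or DESeq2, with 1 at an unadjusted p under 0.05. None of the other 10 genes passed in either comparison by edgeR or DESeq2, with 2 and 1 at an unadjusted p under 0.05, and without the filter on low counts Abca1 passed as lower in PLX3X_CD30 than in PLX3X_CD0.

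IR_BMT was below PLX3X_CD0 for 6 of 20 enzymes (Hmgcs1, Idi1, Ggps1, Sqle, Msmo1 and Sc5d) and above it for 1 (Mvd), against 11.4% of genes lower and 10.1% higher. Values of the 6 ran from -0.70 for Idi1 to -0.27 for Hmgcs1, whose libraries overlapped. With the centred offset 4 were lower, Mvk (-0.24), Idi1 (-0.51), Ggps1 (-0.26) and Sqle (-0.30), and 0 higher, where 4.05% of genes were lower and 5.32% higher (3.77% and 4.78% without the centring). Mvd was no longer called without PLX3X_CD0 replicate 2 or IR_BMT replicate 2 or 3. Hmgcs1 and Msmo1 were each lost without PLX3X_CD0 replicate 1 or 3 or IR_BMT replicate 2 or 3. Hmgcs1 and Idi1 were lost with only the 6 libraries compared. Of the 11 calls in this comparison, regulators included, 2 (Ggps1 and Sqle) held under all alternatives run. Against PLX3X_CD30, IR_BMT was lower for 4 enzymes (Idi1, Ggps1, Msmo1 and Sc5d) and higher for 2 (Mvd and Lss), where 8.88% of genes were lower and 7.63% higher. Ggps1 was the 1 that passed with the centred offset, where 3.09% of genes were lower and 2.3% higher (1.86% and 2.91% without the centring). Without PLX3X_CD30 replicate 2 or 3, or IR_BMT replicate 2 or 3, the 4 lower enzymes became 2, 2, 2 and 1 and the 2 higher became 0; without PLX3X_CD30 replicate 1 the 2 higher became 1.

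Of the other 10 genes, Srebf1, Srebf2, Scap and Nr1h2 were higher in IR_BMT than in PLX3X_CD0 and than in PLX3X_CD30, where 21.5% and 16.5% of genes were called in either direction. All 4 have transcripts of 57.9 to 60.6% GC, and with the centred offset 0 of the 4 passed in either comparison. Abca1 did not pass against PLX3X_CD30 (0.45 ± 0.17 (SE), adjusted p = 0.0863), though its IR_BMT libraries lay wholly above the PLX3X_CD30 libraries. DESeq2, no filter on low counts and the fit of only the 6 libraries compared called it higher there.

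Other genes of the pathway, taken from a list of 28 of which 27 were counted, set the members in context. Of the 27, 5 were higher and 5 lower in PLX1X, 7 and 3 in PLX3X_CD0, 2 and 1 in PLX3X_CD30, and 11 and 4 in IR_BMT. Over all genes 9.97% were higher and 8.12% lower in PLX1X, 12.2% and 9.53% in PLX3X_CD0, 4.74% and 1.84% in PLX3X_CD30, and 15.1% and 15.4% in IR_BMT. The 27 gave, with the centred offset, 4 higher and 8 lower in PLX1X, 5 and 8 in PLX3X_CD0, 2 and 2 in PLX3X_CD30, and 2 and 7 in IR_BMT, so the balance turned in PLX3X_CD0 and IR_BMT. Apoe, the main lipid carrier made by astrocytes and microglia, was lower in PLX1X (-0.36 ± 0.08 (SE), adjusted p = 0.00478) and PLX3X_CD0 (-0.35 ± 0.08 (SE), adjusted p = 0.00505), beside the fall of microglial and astrocyte markers in both. Cyp46a1, the neuronal hydroxylase through which cholesterol leaves the brain, was higher in IR_BMT (0.36 ± 0.06 (SE), adjusted p = 0.000116), and with the centred offset it did not pass (0.10, adjusted p = 0.203). In the PLX groups edgeR did not call Cyp46a1, with values from 0.16 to 0.18, and DESeq2 called it higher in all 3.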

How the data were processed

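RNA was extracted from frozen forebrain and cDNA was made with a low-input kit that does not mark strand, amplified and sequenced as paired reads, per the labels' protocols. The submitters' processing notes name DRAGEN, DESeq2 and the build mm10, with no version or role. The authors deposited raw counts per gene, and beside them CPM, which equal each count over its library's total to within rounding. The table had 55774 rows, of which 287 repeated a gene with identical counts and were used once. In each library 70.6 to 74.7% of counts from 1 to 4 were even, so counts of a gene are not taken as independent molecules.

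The deposited counts were fitted in 1 model over all 15 libraries with edgeR 4.0.16 in R 4.3.3 (TMM scaling, default filter on low counts, robust quasi-likelihood test, two-sided, Benjamini-Hochberg adjustment over 21780 genes at 0.05). The common coefficient of variation between libraries was 12.1%, and depth and 3 libraries per group limit the precision. SE was obtained as the size of the log2 fold change divided by the square root of F. The fit was tested on simulated data. The alternatives tried were DESeq2 1.42.0, another scaling (RLE), no filter, a filter of 1 CPM in 3 libraries, the 6 libraries compared, each library left out, a replicate block, and a loess offset (span 0.3) for length and GC content, known for 99.9% of genes tested. As first run, that offset was not centred, and the median log2 fold change of all genes in PLX1X went from -0.04 to 0.07. Centring was added after those results were seen, and both forms are reported.

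No pair of replicates agreed within sampling noise (chi-square per degree of freedom from 3.94 to 27). Positions and lengths are from GENCODE M21 and promoters from RefSeq, both GRCm38. The 30 genes and all lists were chosen with earlier results of these data known. All 30 are described, and from each other list up to 4 genes with the smallest adjusted p against NT, and a few set genes, could be named. Library names gave the groups. Some genes of the other lists are not reported here.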

Additional observations from a re-analysis of the deposited data

How the results depend on the processing

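Of 60 calls of the 30 genes over the 8 comparisons, DESeq2 and RLE size factors ended 0, the stricter filter 2, the replicate block 2, no filter 4, the 6 libraries compared 11 and leaving out 1 library 21. The length and GC offset ended 23 as first run. Centred, a form chosen after seeing the data, it ended 26. A further 5 changed sign and did not pass either, so they too were lost and were not calls in the opposite direction. Apart from the fits with fewer libraries or other filters, the cause was not tested.

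Counts of regulator, uptake and efflux genes called, in either direction, moved as follows. The 4 higher in PLX3X_CD0 and the 4 in IR_BMT each became 2 higher and 2 lower with the centred offset, the 1 in PLX3X_CD30 became 0 higher and 1 lower, and the 1 in PLX1X became 1 and 1. In PLX1X against NT the 1 became 3 with DESeq2, 2 with RLE, no filter, the stricter filter, the replicate block and the centred offset, 4 with the uncentred offset with or without the block, 3 with the centred offset and block, and 1 to 2 without single libraries. In PLX3X_CD0 the 4 became 2 with the 6 libraries compared and 2 to 5 without single libraries. In PLX3X_CD30 the 1 became 3 with no filter, 2 with the uncentred offset with or without the block, 0 with the 6 libraries and 0 to 1 without single libraries. In PLX3X_CD30 against PLX3X_CD0 the 0 became 1 with no filter. In IR_BMT against PLX3X_CD0 the 4 became 0 with each of the 4 offset fits; against PLX3X_CD30 the 4 became 1 with the uncentred offset with or without the block and 0 with the centred one.

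Synthesis enzymes higher in PLX3X_CD30 than in NT went from 5 to 3 with the centred offset with or without the block, 2 with the 6 libraries and 1 to 6 without single libraries. The 2 lower in IR_BMT became 1 in each of the 4 offset fits. The 1 higher in PLX3X_CD0 than in PLX1X became 0 in each offset fit and 0 without single libraries. The 1 lower in PLX3X_CD30 than in PLX3X_CD0 became 2 with DESeq2 and the uncentred offset and 0 with the centred one with or without the block. The 1 higher in IR_BMT than in PLX3X_CD0 became 0 in each offset fit and 0 to 1 without single libraries, and the 6 lower became 3 with the centred offset and block. Against PLX3X_CD30 the 2 higher became 1 with no filter, the stricter filter or the block, 0 in each offset fit and 0 to 2 without single libraries; the 4 lower became 1 with the uncentred offset, 0 with that and the block, 1 with the centred offset with or without the block, and 1 to 5 without single libraries.

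Signs turned for Pmvk in PLX1X (0.177 with the uncentred offset, with or without the block). With the centred offset, and with the block added, they turned for Srebf2 in PLX3X_CD0 (-0.025 and -0.026), IR_BMT (-0.018 in both) and IR_BMT against PLX3X_CD30 (-0.032 and -0.033). They turned for Nr1h2 in IR_BMT (-0.007 in both) and against PLX3X_CD30 (-0.009 and -0.010), for Srebf1 in IR_BMT (-0.175 without the block), and for Cyp46a1 in IR_BMT against PLX3X_CD30 (-0.026 in both) and PLX3X_CD0 (-0.020 and -0.021; uncentred -0.023 and -0.024).

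Replicate numbers did not pair the libraries: deviations of same-numbered libraries correlated at -0.09 to 0.226 (median 0.002, 30 pairs), and 7 of 15 libraries correlated best with their own number. Without NT replicate 1, which stood apart in thalamic markers, 8, 7, 5 and 4 enzymes were higher in PLX1X, PLX3X_CD0, PLX3X_CD30 and IR_BMT. These were not all the same enzymes as before. In PLX1X Dhcr7 was lost and Cyp51 gained, and in PLX3X_CD0 Mvk and Sc5d were lost and Hsd17b7 gained. Low genes such as Fdps, at 2.7 to 4.6 CPM, are measured least precisely, and 3 libraries a group limit every test.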

Other observations

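Genes of fatty acid synthesis, which SREBP1 and the liver X receptors control, moved in both directions. Of 15 listed, 2 were higher and 6 lower in PLX1X, 3 and 6 in PLX3X_CD0, 0 and 4 in PLX3X_CD30, and 5 and 5 in IR_BMT. Over all genes 9.97% were higher and 8.12% lower in PLX1X, 12.2% and 9.53% in PLX3X_CD0, 4.74% and 1.84% in PLX3X_CD30, and 15.1% and 15.4% in IR_BMT. With the centred length and GC offset 2 of the 15 were higher and 10 lower in PLX1X, 3 and 9 in PLX3X_CD0, 0 and 7 in PLX3X_CD30, and 4 and 7 in IR_BMT. Fasn, fatty acid synthase, was at 263, 296 and 347 CPM in NT, 477, 471 and 469.5 in PLX3X_CD0 and 499.6, 520.0 and 533 in IR_BMT, with log2 fold changes of 0.65 ± 0.07 (SE), adjusted p = 3.86e-06 in PLX3X_CD0 and 0.78 ± 0.07 (SE), adjusted p = 7.3e-07 in IR_BMT by edgeR. Under that offset Fasn was at 0.39 and 0.37, and both still passed. Fasn was also higher in PLX1X with the centred offset, at 0.19, adjusted p = 0.0106. Acaca, acetyl-CoA carboxylase, rose in PLX3X_CD0 and IR_BMT by 0.59 and 0.48, and with the centred offset by 0.36 and 0.33. Scd1, the desaturase that makes monounsaturated fatty acids, was at 134, 117 and 131 CPM in NT and lower in all 4 groups, at -0.38 in PLX1X, -0.54 in PLX3X_CD0, -0.36 in PLX3X_CD30 and -0.24 in IR_BMT. The IR_BMT call of Scd1 was lost with the offset that was not centred and without IR_BMT replicate 2. Elovl5, a fatty acid elongase, was lower in all 4 groups as well, from -0.21 in PLX1X to -0.42 in PLX3X_CD0, and in IR_BMT it went from -0.41 to -0.25 with the centred offset. The Elovl5 call was lost in PLX1X, PLX3X_CD30 and IR_BMT with the offset that was not centred, and in PLX1X without NT replicate 3 or any 1 PLX1X library and in PLX3X_CD30 without NT replicate 3 or PLX3X_CD30 replicate 1 or 3.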
